A study of Homo sapiens with 4 samples.

Results

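Aminoacyl-tRNA synthetases, the enzymes that attach each amino acid to its transfer RNA, were measured with and without interleukin-1β (IL-1β) in MIA PaCa-2, an established line of human pancreatic carcinoma cells. Their probes were found by gene symbol (a letter followed by ARS with an optional 1 or 2, together with EPRS1, FARSA, FARSB and the scaffold proteins AIMP1 and AIMP2). Of 48803 probes on the Illumina WG-6 v3 array, 42 carried such a symbol, for 35 genes, and 35 probes for 33 genes were detected (detection p below 0.01) on at least 2 of 4 arrays. These 33 genes, of 8862 genes tested by name, were 19 cytosolic and 14 mitochondrial enzymes. The 7 probes that did not pass were the only probes of AIMP1 and of PARS2, a mitochondrial prolyl enzyme, 3 further probes of VARS1, and 1 further probe each of IARS1 and MARS2. YARS2 and AIMP2 were not analysed here.

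Treated cells were cultured with IL-1β at 2 ng/ml for 36 h and the controls were untreated cells of the same line, with 2 arrays per group. No label says whether the cultures within a group were separate, so the p-values reflect a spread among samples that may be only technical. Values are log2 intensities after background correction and quantile normalization, and differences are IL-1β minus control. Between 12740 and 13157 probes were detected per array. The epithelial keratins KRT8, KRT18 and KRT19 were detected while EPCAM was not. Few listed markers of other cell types passed the filter. These were 1 of 6 for fibroblasts (COL1A2), 1 of 5 for immune cells (CD14), 1 of 3 for endothelium (CDH5) and 0 of 3 for acinar cells. CD14 was detected on only 1 array of each group. Precision is limited by the number of arrays, and the median standard error over all probes tested was 0.111 on the log2 scale.

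Human cells keep separate sets of these enzymes for cytosolic and mitochondrial protein synthesis, nearly all encoded in different nuclear genes. GARS1 and KARS1 are the exceptions, since each encodes both forms, and they were counted here with the cytosolic genes. Several cytosolic enzymes are held together with AIMP1, AIMP2 and EEF1E1 in the multisynthetase complex, while others work free of it. Many cytosolic synthetase genes are known targets of ATF4, the transcription factor of the amino acid response, and WARS1 is known to be induced by interferon-γ.

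The synthetase genes as a set lay close to no difference between IL-1β-treated and untreated cells. No member probe passed an adjusted p of 0.05 in limma, and the share that passed among the 13152 probes tested was 0%. At an unadjusted p under 0.05, TARS1, SARS2 and CARS2 were lower with IL-1β and FARS2 was higher, or 4 of 33 genes, against 18.5% of all probes tested. For the 3 lower and the 1 higher gene the shares of all probes were 9.28% and 9.25%. With any 1 of the 4 arrays left out, TARS1 lay between -0.34 and -0.20 and SARS2 between -0.29 and -0.20. CARS2 then lay between -0.52 and -0.32 and FARS2 between 0.19 and 0.45. No member gene was 1.5-fold apart, as 3.09% of all probes were. The median difference was 0.005 over the 19 cytosolic genes and 0.032 over the 14 mitochondrial genes, beside -0.001 over all probes tested. The member values ranged from -0.41 for CARS2 to 0.43 for TARS2, and which genes stood at the ends changed with the setting. Without control replicate 1, TARS1 was at -0.34 and CARS2 at -0.33, and FARS2 was at 0.45 and TARS2 at 0.10.

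**Figure D1:**
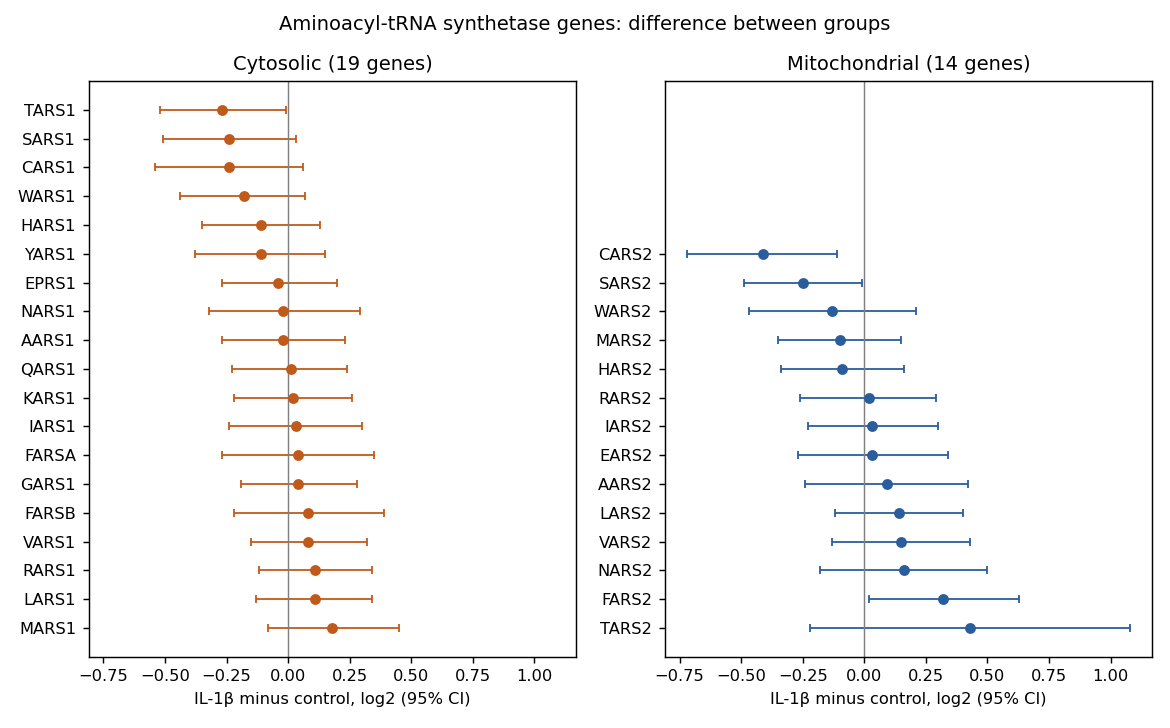
IL-1β minus control log2 difference of each of the 19 cytosolic (left) and 14 mitochondrial (right) synthetase genes, each shown by the brightest of its tested probes. Points are the fitted differences and bars are 95% confidence intervals from limma. The bars of TARS1, CARS2 and SARS2 lie below 0 and that of FARS2 above it, and all others cross 0.

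IL-1β and control arrays were fully separated in 16 of the 33 genes, beside 50.7% of all probes tested. In 9 of them the IL-1β arrays were lower (25.2% of all probes tested did this) and in 7 they were higher (25.5% of all). The 9 were TARS1, SARS1, CARS1, WARS1, HARS1 and YARS1 among cytosolic enzymes and CARS2, SARS2 and MARS2 among mitochondrial ones. The 7 were MARS1, RARS1, LARS1 and VARS1 in the cytosol and FARS2, VARS2 and LARS2 in the mitochondrion. In the raw intensities, before any scaling, 27 of the 33 genes had both IL-1β arrays below both control arrays and 0 had both above, where all probes tested gave 74.8% and 1.2%. The arrays themselves were dimmer with IL-1β, with a mean raw intensity of 482 and 449 against 527 and 549 in controls. A sign given here is therefore relative to the other probes on the array.

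Among cytosolic enzymes TARS1, which charges threonine tRNA, was the gene with an unadjusted p under 0.05. Its log2 intensity was 10.52 and 10.60 on the IL-1β arrays, against 10.76 and 10.90 on the control arrays. The groups did not overlap, and the difference was -0.27 ± 0.10 (SE), or 1.2-fold lower, with adjusted p = 0.259 in limma. In raw intensity the IL-1β arrays gave 1491 and 1454 and the control arrays 2025 and 2315. The authors' deposited table of averages holds the same probe at 1588 with IL-1β and 2022 in controls, a ratio of 0.785. With raw intensities multiplied by the scaling factors of that table, without background correction or quantile normalization, TARS1 passed. Its difference was then -0.35 ± 0.09 with adjusted p = 0.022 in limma, where 8.34% of all probes passed.

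The start region of TARS1 is shown because that gene had the lowest unadjusted p of the cytosolic enzymes, and because its letters match motifs of both pathways named above. The RefSeq promoter windows (GRCh38.p14) run from 250 bases before to 50 after a start, and 44 windows matched 32 of the member genes. The C/EBP-ATF element TGATGNAAT, searched on both strands, was in 2 of these windows, of TARS1 and GARS1, and in 0.991% of all 35116 windows. The element TTCNNNGAA, the binding form of STAT factors, reads the same on both strands. It was in 7 of the 44 windows, of CARS1, PARS2, TARS1, WARS1 and WARS2, and in 7.66% of all. TARS1 and WARS2 each had 2 of these windows, and the WARS2 windows overlap and hold the same match. In the first TARS1 sequence, the bases before the start, capitals mark the STAT form. In the second, at the start, and in that of GARS1 they mark the C/EBP-ATF element read on the opposite strand.
TARS1, chr5:33440715-33440964, plus strand: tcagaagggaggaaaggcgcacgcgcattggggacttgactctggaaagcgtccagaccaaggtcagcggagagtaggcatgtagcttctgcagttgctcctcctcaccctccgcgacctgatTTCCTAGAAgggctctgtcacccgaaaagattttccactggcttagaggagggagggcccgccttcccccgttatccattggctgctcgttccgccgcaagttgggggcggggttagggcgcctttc
TARS1, chr5:33440956-33440984, plus strand: gcgcctttcgATTGCATCAgctggtccag
GARS1, chr7:30594834-30594862, plus strand: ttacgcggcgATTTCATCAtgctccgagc
A match describes letters in a window and is no measured site. The genes that share the C/EBP-ATF letters had different values here, with TARS1 as above and GARS1 at 0.04 ± 0.09.

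GARS1, the glycyl enzyme of both compartments, had log2 intensities of 13.17 and 13.19 with IL-1β, against 13.10 and 13.17 in controls. AARS1, the alanyl enzyme, had 13.98 and 14.10 with IL-1β, against 14.10 and 14.02. EPRS1, whose protein joins a glutamyl and a prolyl enzyme, had 12.25 and 12.32, against 12.34 and 12.31. In all 3 the groups overlapped, and the differences of AARS1 and EPRS1 were -0.02 ± 0.10 and -0.04 ± 0.09 (adjusted p = 0.947 and 0.872 in limma). The 95% confidence intervals of the fold were 0.875 to 1.21 for GARS1, 0.83 to 1.18 for AARS1 and 0.827 to 1.15 for EPRS1.

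WARS1, the tryptophanyl enzyme, was read by a pair of probes, both detected on all arrays. The probe with the higher mean gave 13.14 and 13.11 with IL-1β, against 13.38 and 13.23 in controls. Its difference was -0.18 ± 0.10, and that of the other probe was -0.14 ± 0.10, with adjusted p = 0.409 and 0.506 in limma. On both probes the IL-1β arrays lay below the control arrays. Of the interferon-γ response genes set beside it, 6 of 10 were tested and 1, the immunoproteasome subunit PSMB9 at 0.36 ± 0.10, had an unadjusted p under 0.05 (18.5% of all probes tested did), with IRF1 at 0.02 ± 0.10 and GBP1 at -0.31 ± 0.17. The 250 bases before a RefSeq start of WARS1 (GRCh38.p14) are shown because interferon-γ acts through STAT factors, with the STAT form in capitals.
WARS1, chr14:100375348-100375597, minus strand: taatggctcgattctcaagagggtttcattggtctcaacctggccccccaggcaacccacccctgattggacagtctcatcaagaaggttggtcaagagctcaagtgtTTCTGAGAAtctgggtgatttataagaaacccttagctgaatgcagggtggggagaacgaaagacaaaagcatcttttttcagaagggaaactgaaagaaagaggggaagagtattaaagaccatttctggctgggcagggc
The match is a description of these letters alone.

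CARS1, the cysteinyl enzyme of the cytosol, had log2 intensities of 7.43 and 7.62 with IL-1β, against 7.86 and 7.69 in controls. SARS1, the seryl enzyme, had 10.12 and 9.93, against 10.27 and 10.27. In both the groups did not overlap, with differences of -0.24 ± 0.12 and -0.24 ± 0.11 (adjusted p = 0.349 and 0.307 in limma). Scaled by the authors' factors, again without background correction or quantile normalization, SARS1 also passed, at -0.33 ± 0.09 with adjusted p = 0.0318 in limma. HARS1, the histidyl enzyme, and YARS1, the tyrosyl enzyme, each differed by -0.11.

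The other end of the cytosolic range was held by enzymes of the multisynthetase complex. MARS1, the methionyl enzyme, had 9.41 and 9.51 with IL-1β, against 9.34 and 9.21 in controls, a difference of 0.18 ± 0.11 with adjusted p = 0.411 in limma. RARS1 and LARS1, the arginyl and leucyl enzymes, each differed by 0.11 ± 0.09. The 7 complex enzymes tested had a median of 0.030 and ranged from -0.04 to 0.18, and without overlap 0 of them were lower with IL-1β and 3 higher. The other 12 cytosolic genes had a median of -0.063 and ranged from -0.27 to 0.08, with 6 lower and 1 higher without overlap. Over all probes tested these shares were 25.2% lower and 25.5% higher. The median of the complex was the higher in each of 17 processing settings, which share their arrays, and the difference between these sets of genes has no test here. By catalytic class, the 17 class I genes had a median of 0.030 and the 15 class II genes one of 0.020.

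**Figure D2:**
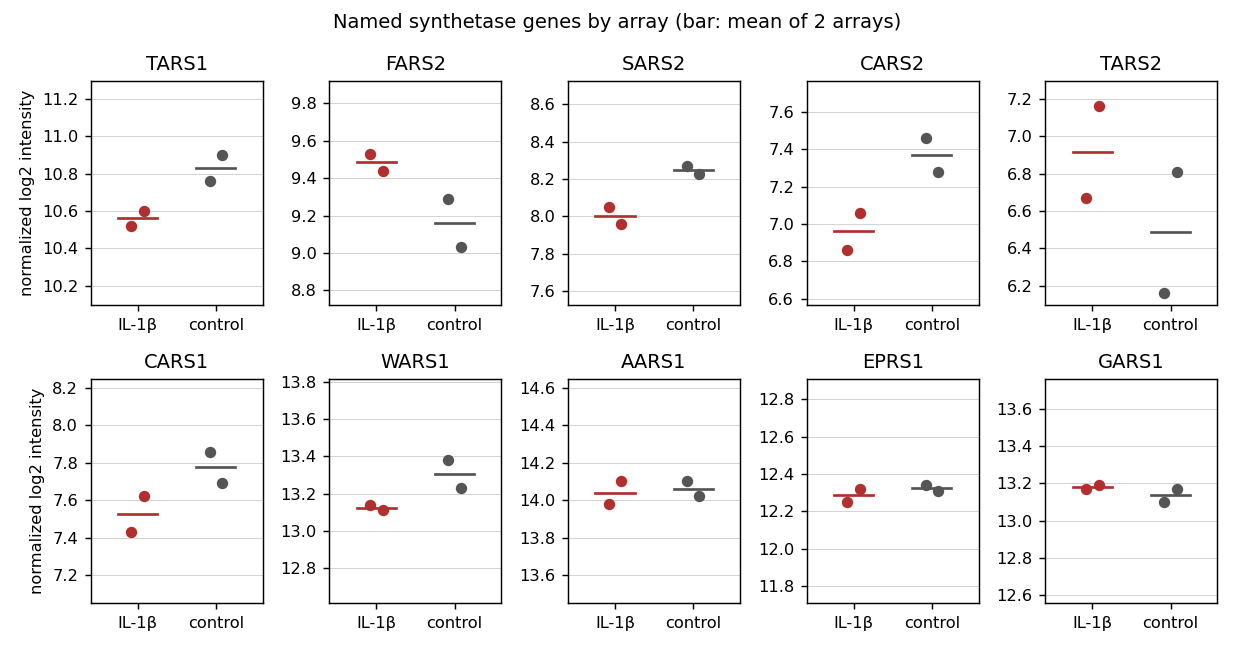
Normalized log2 intensity on each array for 10 synthetase genes, with IL-1β left of control in each panel. Points are arrays, bars are means of 2 arrays, and every panel spans the same width on the log2 scale. TARS1, SARS2, CARS2, CARS1 and WARS1 have both IL-1β arrays below both control arrays, FARS2 has them above, and the other 4 overlap.

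Among mitochondrial enzymes, CARS2, the cysteinyl enzyme, had log2 intensities of 6.86 and 7.06 with IL-1β, against 7.46 and 7.28 in controls. The difference was -0.41 ± 0.12, or 1.33-fold lower, with adjusted p = 0.185 in limma. With median scaling over all probes it was -0.63 ± 0.12 and passed (adjusted p = 0.0409 in limma), a setting under which the median of all probes tested was at -0.218 and 6.99% of them passed.

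SARS2, the seryl enzyme, had 8.05 and 7.96 with IL-1β, against 8.27 and 8.23 in controls. The difference was -0.25 ± 0.10, with adjusted p = 0.262 in limma. FARS2, the phenylalanyl enzyme of the mitochondrion, had 9.53 and 9.44 with IL-1β, against 9.29 and 9.03 in controls. It was 1.25-fold higher (95% confidence interval 1.01 to 1.55), with adjusted p = 0.256 in limma. In SARS2 and FARS2 the groups did not overlap. The threonyl enzyme TARS2 had 6.67 and 7.16 with IL-1β against 6.16 and 6.81 in controls. Its groups overlapped, and its difference was 0.43 ± 0.26 (adjusted p = 0.438 in limma). That value rested on single arrays, at 0.10 without control replicate 1, 0.75 without control replicate 2, 0.68 without IL-1β replicate 1 and 0.19 without IL-1β replicate 2.

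The remaining mitochondrial genes with a difference of at least 0.09 in size were WARS2 at -0.13, MARS2 at -0.10 and HARS2 at -0.09 on the lower side. On the higher side were NARS2 at 0.16, VARS2 at 0.15, LARS2 at 0.14 and AARS2 at 0.09. The 10 genes EARS2, FARSA, FARSB, IARS1, IARS2, KARS1, NARS1, QARS1, RARS2 and VARS1 lay between -0.02 and 0.08, with confidence intervals that reach from -0.32 to 0.39 in all. In 9 of these the groups overlapped, and in VARS1 the IL-1β arrays were higher. FARSB, the β subunit of the cytosolic phenylalanyl enzyme, had a further probe just inside the detection rule, detected on both IL-1β arrays and on 0 of 2 control arrays. That probe had means of 6.33 with IL-1β and 6.05 in controls, near the detection limit. It entered through the group in which it was higher, so no difference is read from it. Its raw intensities were 213.3 and 208.9 with IL-1β, against 212.4 and 226.2 in controls. The further MARS2 probe, just outside the rule, was detected on 1 control array.

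Cytosolic and mitochondrial enzymes for the same amino acid could be set side by side for 13 amino acids other than phenylalanine, counting EPRS1 with EARS2. In 8 pairs the signs were the same, 4 lower and 4 higher, and in 5 they were opposite. The cysteinyl enzymes differed by -0.24 and -0.41, the seryl enzymes by -0.24 and -0.25, and the tryptophanyl enzymes by -0.18 and -0.13, the cytosolic one first in each. The leucyl enzymes differed by 0.11 and 0.14. The threonyl enzymes had opposite signs, at -0.27 ± 0.10 for TARS1 and 0.43 ± 0.26 for TARS2, as did the methionyl ones, at 0.18 for MARS1 and -0.10 for MARS2.

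**Figure D3:**
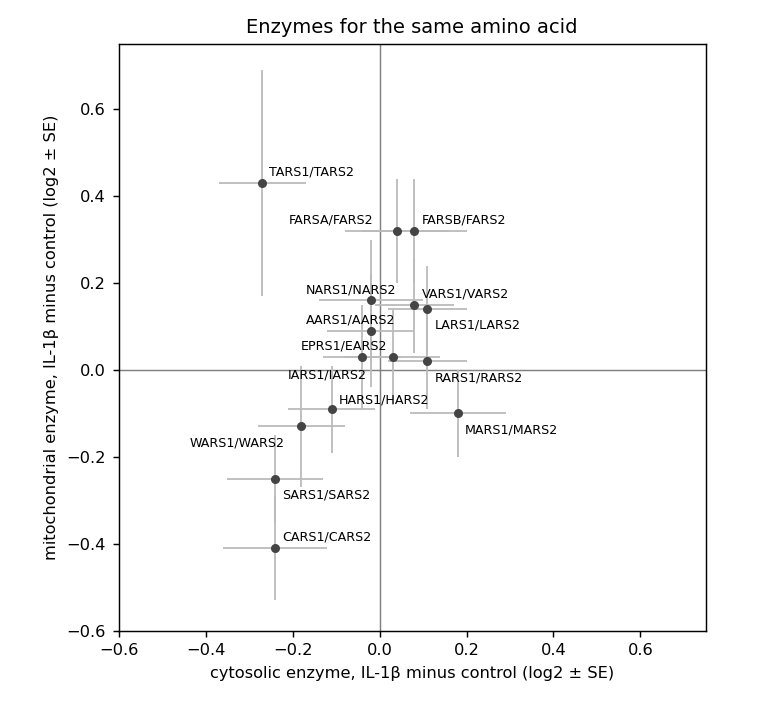
IL-1β minus control log2 difference of the cytosolic enzyme (x axis) and the mitochondrial enzyme (y axis) for the same amino acid, with bars of 1 SE. FARS2 is drawn against both cytosolic subunits, FARSA and FARSB. The cysteinyl, seryl and tryptophanyl pairs lie lower left and the threonyl pair upper left.

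The histidyl genes are neighbours that start back to back, and the 84 bases between their starts are shown because both are read from the same stretch of DNA. HARS1 runs on the minus strand and HARS2 on the plus strand, on which the sequence is written.
HARS1 to HARS2, chr5:140691371-140691454: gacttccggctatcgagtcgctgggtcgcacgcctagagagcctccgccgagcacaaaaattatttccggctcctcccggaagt
HARS1 had 10.56 and 10.52 with IL-1β, against 10.71 and 10.60 in controls, and HARS2 had 10.64 and 10.75, against 10.82 and 10.75. The differences were -0.11 ± 0.10 and -0.09 ± 0.10 (adjusted p = 0.601 and 0.684 in limma). The groups did not overlap in HARS1 and met in HARS2.

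Genes next to the synthetases in translation showed small differences as well. Of 20 genes of tRNA charging and editing, 13 were tested, with a median of 0.028, and 2 had an unadjusted p under 0.05, a share close to the 18.5% of all probes tested. SEPSECS, which makes selenocysteinyl-tRNA, was at 0.38 ± 0.11 and OSGEP, of a tRNA-modifying complex, at -0.43 ± 0.17. XPOT, the exporter of tRNA from the nucleus, was at -0.18 ± 0.10. The 7 cytosolic elongation factors lay between -0.14 (EIF5A) and 0.15 (EEF1D). Of 9 mitochondrial translation factors 7 were tested, with a median of -0.059. GFM1, the mitochondrial elongation factor G, was at -0.35 ± 0.09 with adjusted p = 0.165 in limma.

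Genes of the ATF4 response other than synthetases are set beside these as a list. Of 30, 26 were tested, with a median of 0.044, and at an unadjusted p under 0.05 4 were higher and 1 lower, beside 9.25% and 9.28% of all probes tested. None of the 26 passed an adjusted p of 0.05 in limma. NUPR1 and GDF15, stress-induced genes, were at 0.96 ± 0.12 and 0.88 ± 0.10, each with adjusted p = 0.0774 in limma. ATF5 and SHMT2 were at 0.29 ± 0.10 and 0.26 ± 0.10, and ATF3 was at -0.45 ± 0.13. ATF4 itself was at -0.03 ± 0.10, ASNS, asparagine synthetase, at 0.14 ± 0.10 and TRIB3, an ATF4 target, at -0.05 ± 0.09.

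The authors' deposited table of scores lists 4 of the 33 synthetase genes, under their older symbols. It holds 1440 genes in all, where 8862 genes were tested here by name, and the genes it was drawn from are not stated. Its symbol SARS was read as SARS1, since the probe of SARS1 is in the authors' table of averages and that of SARS2 is not. The scores were -29.18 for TARS1, -24.47 for WARS1, -22.43 for HARS1 and -16.65 for SARS1, all cytosolic enzymes outside the multisynthetase complex. Negative scores make up 84.4% of that table, and the smallest score in size is 13. How the score was made is not stated there. The authors' deposited table of averages gives these 4 genes ratios of IL-1β over control of 0.785 for TARS1, 0.799 for SARS1, 0.864 for WARS1 and 0.865 for HARS1. The WARS1 ratio is of its probe with the lower mean, which differed by -0.14 here. Of all probes in the authors' deposited table of averages, 84.4% were lower with IL-1β.

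The level of the whole set changed with the processing. The median of the cytosolic genes was -0.093 with the authors' averaged-table scaling and -0.063 in their series matrix, where all probes tested had medians of -0.044 and -0.079. The median of the mitochondrial genes lay above that of the cytosolic genes in 15 of 17 settings and below it without control replicate 1 and without IL-1β replicate 2. The sign of these medians also rested on single arrays. The cytosolic median was -0.040 without control replicate 2 and -0.022 without IL-1β replicate 2, and the mitochondrial median was -0.012 without control replicate 1 and -0.042 without IL-1β replicate 2.

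**Figure D4:**
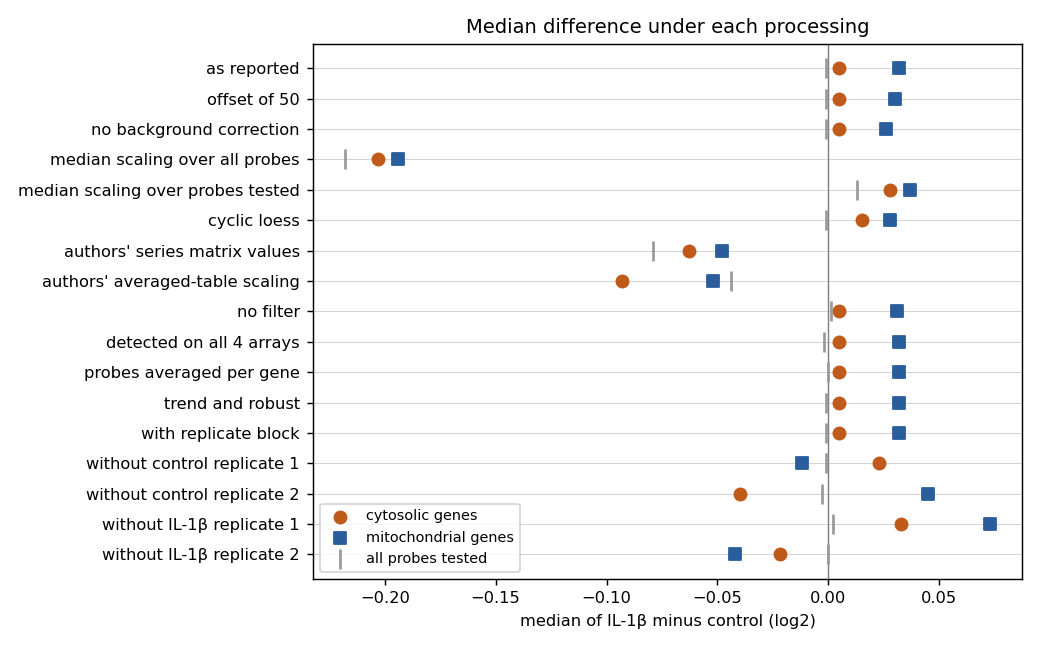
Median IL-1β minus control log2 difference of the cytosolic genes (circles), the mitochondrial genes (squares) and all probes tested (ticks) under 17 processing settings, the reported one at the top. With median scaling over all probes all 3 lie between -0.218 and -0.194, and in the other settings the gene medians lie between -0.093 and 0.073.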

How the data were processed

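RNA from 4 samples of MIA PaCa-2 cells was hybridised to Illumina WG-6 v3 arrays. The deposited raw intensities are linear and unscaled, and each comes with a detection p-value, per the file headers. In the authors' deposited averages, each array's intensities carry a factor between 0.914 and 1.12, as read from the values. Their series matrix intensities are background-subtracted with equal means per array. A deposited score per gene has no header. Scanner software: not given in the sources used here.

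The neqc function (limma 3.58.1, R 4.3.3) was applied to the raw intensities (background from the detection p-values, offset of 16, quantile normalization, log2). The 13152 probes detected on at least 2 arrays were fitted with lmFit and eBayes (two-sided tests), and Benjamini-Hochberg adjustment covered all of them. The brightest tested probe stood for its gene. Names came from the array's probe-to-gene table (27578 probes with 1 symbol, 13 with several, 21212 not listed). Array-by-array values go to members with an unadjusted p under 0.05, filled to 6 by size, and to WARS1, AARS1, EPRS1 and GARS1; those of further members were chosen after their values were seen. Members and lists were chosen with earlier results of these data known. The fit was tested on simulated data. An exact permutation of 2 against 2 arrays cannot give p below 0.333. Alternatives changed background correction, scaling, filter, probe averaging and variance model, or the arrays used, with a replicate block as a further fit. The authors' averaged-table scaling used raw intensities and their factors, without background correction or quantile normalization.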

Additional observations from a re-analysis of the deposited data

How the results depend on the processing

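With 2 arrays per group the median standard error was 0.111 on the log2 scale, and 17 of 33 members had overlapping groups. No member probe passed an adjusted p of 0.05 in limma as reported or in 14 of the 16 alternatives; 1 passed with median scaling over all probes (CARS2) and 2 with the authors' averaged-table scaling (TARS1 and SARS1). The 3 lower genes at an unadjusted p under 0.05 became 11 with median scaling over all probes, 8 with the authors' averaged-table scaling, 1 with median scaling over probes tested and 5 in the series matrix values. Of the 13152 probes tested, 1220 were lower at that p as reported, and 4231, 2371, 1098 and 1896 in these settings, in the same order. The 1 higher gene became 0 under these 4 settings, with cyclic loess and with no filter. Among all probes tested, 1217 were higher as reported, 257, 924, 1357 and 654 under these 4 settings, and 1222 with cyclic loess. Genes lower without overlap numbered 22 and higher ones 0 with median scaling over all probes, 14 and 4 in the series matrix values, and higher ones 1 with the averaged-table scaling. No share of all probes without overlap is given for these settings, whose medians over all probes tested were -0.218, -0.079 and -0.044. Leaving out 1 array at a time gave medians of -0.040 to 0.033 for cytosolic and -0.042 to 0.073 for mitochondrial genes.

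Median scaling over all probes moved the median of all probes tested to -0.218, that of cytosolic genes to -0.203 and that of mitochondrial genes to -0.194. The averaged-table scaling gave -0.093 and -0.052, and the series matrix values -0.063 and -0.048. Of all probes at that unadjusted p, the share that were lower was 50.1% as reported, 94.3% with median scaling over all probes, 74.4% in the series matrix values and 72% with the averaged-table scaling. Probes past an adjusted p of 0.05 numbered 0 as reported, 728 with trend and robust settings, 622 with no background correction, 91 with an offset of 50 and 66 with detection on all arrays.

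Of the 33 members, 16 changed sign with median scaling over all probes, 11 with the averaged-table scaling and 10 in the series matrix values. Among the 23 genes with a value of their own in the text, signs turned for LARS1 (-0.10), LARS2 (-0.09), MARS1 (-0.07), NARS2 (-0.09), VARS2 (-0.08), RARS1 (-0.12), AARS2 (-0.15) and GARS1 (-0.12) with median scaling over all probes, which carries its shift. With the averaged-table scaling RARS1 was at -0.01, GARS1 at -0.02 and AARS1 at 0.01. In the series matrix values AARS1 was at 0.07 and AARS2 at -0.01. AARS1 was at 0.15 with median scaling over probes tested, 0.03 with cyclic loess, 0.02 without control replicate 1 and 0.04 without IL-1β replicate 1, and AARS2, with 1 array left out, ranged from -0.05 (control replicate 1) to 0.23 (control replicate 2). TARS1, CARS1, CARS2, SARS1, SARS2, WARS1, FARS2 and TARS2 kept their sign in every setting, as did HARS1, HARS2, MARS2, WARS2 and YARS1. The settings share their arrays, and leaving out 1 array could hardly turn the sign of a gene whose groups did not overlap. Replicate numbers are shared between the groups' titles, and no label says whether same-numbered arrays were paired. The deviations of same-numbered arrays correlated at -0.09 over probes tested. With 2 pairs of arrays this value cannot settle whether they were paired. With a replicate block 1 gene was lower and 2 higher at an unadjusted p under 0.05, beside 1015 and 1013 of the 13152 probes tested. No member passed the adjusted threshold in that fit. The cause of these changes was not tested.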
